A study of Mus musculus with 6 samples.

Results

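The ISG15 conjugation system and 4 small interferon effectors were examined in RAW264.7, a mouse macrophage-like cell line. The 9 genes were chosen by name: Isg15, its activating enzyme Uba7, its conjugating enzyme Ube2l6, its ligase Herc6, its deconjugating protease Usp18, and the effectors Rtp4, Bst2, Ifitm2 and Ifitm3. All 9 were found, each in a row of its own, among the 56636 genes of the deposited table. Cells of wild-type genotype were given an agent labelled 25-HC (3 libraries) or vehicle (3 libraries) for 24 h, and bulk RNA was sequenced. What 25-HC stands for and how much was given are not stated in the labels. The title of the series names a microRNA secreted by cancer cells and cholesterol homeostasis. All 6 libraries come from the same cell line, and nothing says that they came from separate cultures, so p-values measure only the spread between libraries, which may be technical. In bulk RNA, fewer expressing cells and less RNA per cell cannot be told apart.

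ISG15 is a ubiquitin-like protein that interferons induce and that is attached to other proteins by a chain of enzymes parallel to that of ubiquitin. UBA7 activates ISG15, UBE2L6 carries it, and in the mouse HERC6 is the main ligase that passes it to targets. USP18 removes ISG15 again, and independently of that it binds the type I interferon receptor and dampens its signal. BST2 (tetherin) holds budding enveloped viruses at the cell surface, IFITM2 and IFITM3 hinder virus entry at endosomal membranes, and RTP4 is a Golgi chaperone of G protein-coupled receptors. Many such genes carry in their promoters the interferon-stimulated response element (ISRE), which transcription factors activated by interferon signalling bind.

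RefSeq promoters (build GRCm38.p6, 250 bases before to 50 after the annotated start) were at hand for 7 of the 9 genes, and not for Usp18 and Rtp4. They were searched on both strands for the ISRE core GAAANNGAAA, which 3.44% of all 32851 promoters of that length hold. It was found in Isg15, Ifitm2, Ifitm3 and Bst2 and not in these windows of Uba7, Ube2l6 and Herc6. The 150 bases before the start are shown for 3 of them, with matches in capitals, because the number of matches differs between them. In Isg15 there were 3 overlapping matches (first bases at -78, -72 and -66 from the start), in Bst2 there were 2 overlapping matches (-130 and -124), and in Ifitm2 there was 1 (-46).
Isg15 (chr4:156200819-156200968, minus strand): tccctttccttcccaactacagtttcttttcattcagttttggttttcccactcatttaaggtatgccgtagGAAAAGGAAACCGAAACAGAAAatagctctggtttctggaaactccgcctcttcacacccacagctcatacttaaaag
Bst2 (chr8:71537473-71537622, minus strand): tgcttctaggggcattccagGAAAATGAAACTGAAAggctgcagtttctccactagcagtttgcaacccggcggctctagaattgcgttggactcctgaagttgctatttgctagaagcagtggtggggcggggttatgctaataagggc
Ifitm2 (chr7:140955962-140956111, minus strand): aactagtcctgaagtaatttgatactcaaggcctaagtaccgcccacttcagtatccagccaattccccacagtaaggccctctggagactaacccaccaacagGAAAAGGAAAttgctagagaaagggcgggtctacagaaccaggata
In Ifitm3 both matches lay just after the annotated start, with first bases at 3 and 20, and the second is shown for comparison with the GAAACCGAAA of Isg15.
Ifitm3 (chr7:141010706-141010735, minus strand): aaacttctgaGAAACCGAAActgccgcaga
The core TTCNNNGAA of the gamma-activated site was found in Bst2 and Ifitm3, where in each it overlapped an ISRE match, and in 8.30% of all promoters. These are matches of letters only, and binding was not measured here.

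The deposited values are TPM, transcript abundance scaled for length and to the same total in every library, so depth is unknown. TPM is meant to make levels comparable between genes, but in vehicle 1 and vehicle 2 levels varied with transcript length, as given below. Differences were tested with limma on log2(TPM + 1) over the 12092 genes that averaged 1 TPM or more, 25-HC minus vehicle, with Benjamini-Hochberg adjustment over all of them and a threshold of 0.05. All 9 genes passed that filter, and each had a mean of at least 1 TPM in the vehicle group too. The vehicle libraries were unlike each other: 9492 genes were at 1 TPM or more in vehicle 2, against 11238 in vehicle 1 and 11994 in vehicle 3, while the 25-HC libraries had 11971 to 12005. Longer transcripts were also lower in vehicle 1 and vehicle 2. Genes were put in 6 classes of transcript length, and each vehicle library was set against the average 25-HC library. The class medians on the log2 scale were 0.18 for the shortest and -0.78 for the longest class in vehicle 1, -0.05 and -1.63 in vehicle 2, and 0.05 and 0.04 in vehicle 3. Over all tested genes the median log2 difference between the groups was 0.52, and 0.01 after each library was divided by its median-ratio size factor (0.423 in vehicle 2, 0.967 to 1.32 in the other libraries). Macrophage markers were present, with 9 of 10 at a mean of 1 TPM or more, Mertk listed at 0 and a summed level of 2540 to 2560 TPM in 25-HC and 1790 to 2600 TPM in vehicle libraries. Single markers differed: Itgam averaged 67.7 TPM in 25-HC and 21.3 TPM in vehicle, and Adgre1 16.5 TPM in 25-HC and 5.77 TPM in vehicle. Aif1 averaged 9.88 TPM in 25-HC and 26.9 TPM in vehicle, and vehicle 2 was the library furthest from 25-HC in these 3 genes (0.53 TPM of Itgam, 1.15 of Adgre1 and 51.9 of Aif1). Other markers differed from this. Cd68 was nearly level, at 798 to 818 TPM in 25-HC and 818 to 836 TPM in vehicle libraries. Cd14 was at 362 to 374 TPM in 25-HC and at 560, 354 and 548 TPM in vehicle 1, 2 and 3, with vehicle 2 the nearest. Lyz2 and Fcgr1 were higher in every 25-HC library, while Csf1r and Spi1 overlapped.

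None of the 9 genes passed the limma test over all genes (1 gene in 12092 was called higher, 0.00827%, and none lower). At an unadjusted p under 0.05, 6 of the 9 were higher in 25-HC, against 8.24% of all genes tested, and none was lower, against 2.94%. The same 6 genes, Isg15, Usp18, Ube2l6, Rtp4, Bst2 and Ifitm3, were higher in all 25-HC libraries than in any vehicle library, a separation seen in 22.6% of all tested genes. None of the 9 separated downward, against 8.1% of all tested genes. The 9 genes were chosen with earlier results of these data known, so these shares are a description only. Uba7, Herc6 and Ifitm2 overlapped between the groups. The median log2 difference was 0.65 over the 9 genes and 0.52 over all tested genes. The plot of TPM by library shows each gene.

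**Figure D1:**
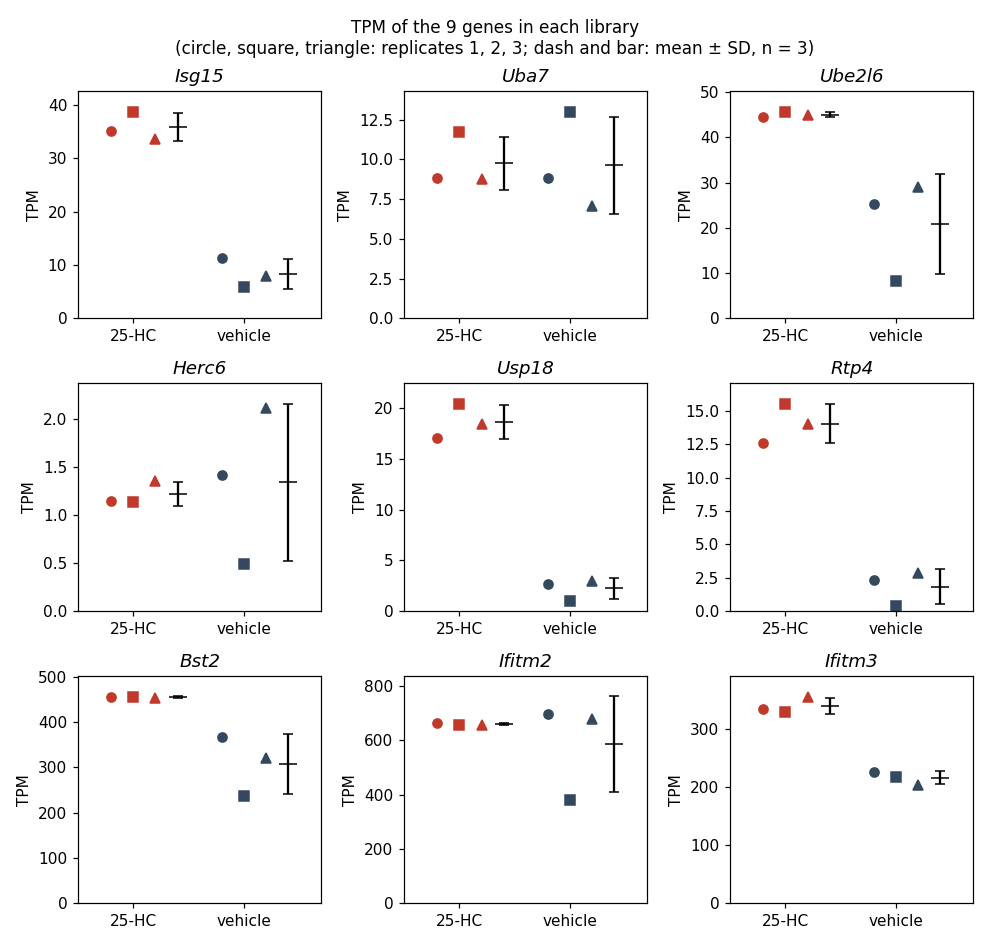
TPM (vertical axis, starting at 0) of the 9 genes in the 3 25-HC and the 3 vehicle libraries, with the mean and SD of each group beside the points. Isg15, Ube2l6, Usp18, Rtp4, Bst2 and Ifitm3 lie higher in every 25-HC library than in every vehicle library, while Uba7, Herc6 and Ifitm2 overlap.

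The modifier itself was among the genes with the larger differences. Isg15 (ENSMUSG00000035692, chromosome 4) had 35.1, 38.7 and 33.6 TPM in 25-HC 1, 2 and 3, against 11.4, 5.83 and 7.88 TPM in vehicle 1, 2 and 3. The 25-HC libraries were all high and the vehicle libraries all low, with no overlap. Its mean TPM was 4.28-fold that of vehicle, and 4.54-fold that of vehicle 3 alone. The log2 difference was 2.02 (SE 0.31, adjusted p = 0.389 by limma). The separation was also present after median-ratio rescaling, with 26.6 to 31.1 rescaled TPM in 25-HC and 5.99 to 13.8 in vehicle libraries, and there the log2 difference was 1.42.

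Of the enzymes that attach ISG15, Ube2l6 separated between the groups on the deposited values, and Uba7 and Herc6 overlapped. Uba7 (ENSMUSG00000032596, chromosome 9), the activating enzyme, had 8.82, 11.7 and 8.75 TPM in 25-HC 1, 2 and 3, against 8.82, 13.0 and 7.05 TPM in vehicle 1, 2 and 3. The highest and the lowest value both belonged to vehicle libraries, and the means were 9.74 ± 1.66 TPM in 25-HC and 9.61 ± 3.04 TPM in vehicle (SD, n = 3 each). The log2 difference was 0.04 (SE 0.32, adjusted p = 0.925 by limma), and it was -0.55 after median-ratio rescaling, where vehicle 2 stood at 30.7 rescaled TPM and the 25-HC libraries at 6.92 to 9.37.

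Ube2l6 (ENSMUSG00000027078, chromosome 2), the conjugating enzyme, had 44.5, 45.7 and 44.9 TPM in 25-HC 1, 2 and 3, against 25.2, 8.33 and 29.0 TPM in vehicle 1, 2 and 3. The 25-HC libraries had a coefficient of variation of 1.37% and were all above vehicle 3, the highest vehicle library. The ratio of means was 2.16, and 1.55 against vehicle 3 alone. Vehicle 2 was far below the other vehicle libraries. The log2 difference was 1.24 (SE 0.47, adjusted p = 0.389 by limma) and 0.65 after median-ratio rescaling, still with no overlap. Ube2l3, the conjugating enzyme of ubiquitin most alike to Ube2l6, was at 139, 142 and 139 TPM in 25-HC and at 216, 346 and 152 TPM in vehicle libraries. It was thus lower in each 25-HC library, on the side opposite to Ube2l6, with a log2 difference of -0.68 (SE 0.32, adjusted p = 0.389 by limma).

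Herc6 (ENSMUSG00000029798, chromosome 6), the ligase, was the least abundant of the 9 genes. It had 1.15, 1.14 and 1.36 TPM in 25-HC 1, 2 and 3, against 1.42, 0.49 and 2.12 TPM in vehicle 1, 2 and 3. The 25-HC libraries lay between vehicle 2 and vehicle 1, and the log2 difference was -0.02 (SE 0.33, adjusted p = 0.974 by limma). Without vehicle 2, the library with the fewest genes at 1 TPM, Herc6 was lower in all 25-HC libraries than in either remaining vehicle library, and it was so after median-ratio rescaling too (0.906 to 1.08 rescaled TPM in 25-HC and 1.16 to 1.61 in vehicle libraries). Of the 9 genes, 2 separated downward without vehicle 2, Herc6 and Ifitm2 (16.9% of all genes), and 1 after rescaling, Herc6 (18.1%). Upward, 6 of the 9 genes separated without vehicle 2 (23.6% of all genes) and 4 after rescaling (18.4%). With quantile normalization 6 separated upward (18.6% of all genes) and Herc6 downward (17.3%).

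Usp18 (ENSMUSG00000030107, chromosome 6), the protease that takes ISG15 off, had the largest log2 difference of the 9 genes on the deposited values with a pseudocount of 1. With a pseudocount of 0.1 that of Rtp4 was larger (3.27, against 3.13 for Usp18). Usp18 had 17.1, 20.4 and 18.4 TPM in the 25-HC libraries, against 2.70, 1.02 and 2.98 TPM in vehicle 1, 2 and 3. Every 25-HC library was well above every vehicle library, and the ratio of means was 8.35, or 6.26 against vehicle 3 alone. The log2 difference was 2.66 (SE 0.35, adjusted p = 0.389 by limma), larger than in 99.3% of the tested genes. After median-ratio rescaling the vehicle libraries came close to each other, at 2.26 to 2.79 rescaled TPM, and the 25-HC libraries stood at 13.5 to 16.4. A noncoding gene on the opposite strand, Gm44148, shares exon sequence with Usp18 in GENCODE M21 and was listed at 1.73, 0.54 and 0.99 TPM in 25-HC and at 0 in the vehicle libraries. The strand setting of the counting is not given in the sources used here, so reads of these genes cannot be told apart.

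Rtp4 (ENSMUSG00000033355, chromosome 16) was close to Usp18 in its difference. It had 12.6, 15.5 and 14.0 TPM in 25-HC 1, 2 and 3, against 2.30, 0.35 and 2.82 TPM in vehicle 1, 2 and 3. The groups did not overlap, and vehicle 2 was lowest, as it was for Isg15, Usp18, Ube2l6, Herc6, Bst2 and Ifitm2. The ratio of means was 7.71, and 4.98 against vehicle 3 alone, with a log2 difference of 2.54 (SE 0.45, adjusted p = 0.389 by limma). On the rescaled values the 25-HC libraries were at 9.94 to 12.5 TPM and the vehicle libraries at 0.828 to 2.38 TPM. Its relatives Rtp1, Rtp2 and Rtp3 were listed at 0 in all 6 libraries.

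The membrane effectors were the abundant members. Ifitm2, Bst2 and Ifitm3 together took 91.5% to 92.4% of the summed TPM of the 9 genes in 25-HC libraries and 95.9% to 96.6% in vehicle libraries. Bst2 (ENSMUSG00000046718, chromosome 8) had 455, 456 and 452 TPM in 25-HC 1, 2 and 3, against 366, 236 and 321 TPM in vehicle 1, 2 and 3. The 25-HC libraries were nearly equal and all above the vehicle libraries, with a ratio of means of 1.48 and a log2 difference of 0.59 (SE 0.21, adjusted p = 0.389 by limma). The median of all tested genes was 0.52 on the same scale. The log2 difference was 0.50 after quantile normalization, 0.59 after length correction and 0.50 against vehicle 3 alone, where the medians of all genes were 0.02, 0.00 and -0.07, and no overlap was seen in these. After median-ratio rescaling it was -0.04, with 358 to 366 rescaled TPM in 25-HC inside the vehicle range of 244 to 559. Bst2 also marks plasmacytoid dendritic cells. Of 8 other markers of those cells, Ccr9 was listed at 0 throughout, Siglech was at 0.29 to 0.81 TPM in 25-HC and at 0.06 to 0.09 TPM in vehicle libraries, and Pacsin1 was at 0.24 to 0.39 TPM in 25-HC and at 0.34 to 0.76 TPM in vehicle libraries. Only Tcf4 and Cox6a2 passed 1 TPM on average. Tcf4 overlapped, with an average of 12.3 TPM in 25-HC and 6.38, 0.89 and 14.8 TPM in vehicle 1, 2 and 3, and Cox6a2 was at 15.3 to 21.5 TPM in 25-HC and 4.48 to 7.64 TPM in vehicle libraries. The list summed to 28.5 to 34.6 TPM in 25-HC and to 9.01 to 20.1 TPM in vehicle libraries. Its part in the Bst2 values was not tested.

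Ifitm3 (ENSMUSG00000025492, chromosome 7) had 334, 328 and 355 TPM in 25-HC 1, 2 and 3, against 226, 217 and 204 TPM in vehicle 1, 2 and 3. It was the gene of the 9 with the least scatter among vehicle libraries on the deposited values, with means of 339 ± 14.2 TPM in 25-HC and 216 ± 10.9 TPM in vehicle (SD, n = 3 each). The groups did not overlap, and the ratio of means was 1.57, or 1.66 against vehicle 3 alone. The log2 difference was 0.65 (SE 0.16, adjusted p = 0.389 by limma). It was 0.60 after quantile normalization, 0.69 after length correction and 0.73 against vehicle 3 alone. With median-ratio rescaling it was 0.02, and the vehicle libraries spread over 155 to 514 rescaled TPM around the 263 to 281 of 25-HC.

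Ifitm2 (ENSMUSG00000060591, chromosome 7), is another IFITM gene on the same chromosome as Ifitm3. It had 662, 657 and 655 TPM in 25-HC 1, 2 and 3, against 695, 381 and 677 TPM in vehicle 1, 2 and 3. The 25-HC libraries lay below vehicle 1 and vehicle 3 and above vehicle 2, and the log2 difference was 0.22 (SE 0.27, adjusted p = 0.566 by limma) or -0.06 without vehicle 2. After correction for transcript length it was 0.27, and all 25-HC libraries were then above the vehicle libraries. Of the stretches of 50 bases in the longest Ifitm2 transcript of GENCODE M21, 48.5% also occur in transcripts of other genes, chiefly Gm45717, which overlaps it and was listed at 1.1 TPM at most. Only 20 of its 606 stretches occur in Ifitm3. For Ifitm3 itself 10.0% of the stretches occur elsewhere, for Herc6 23.8%, for Rtp4 13.6%, and for the other members 4.17% or less. How reads of such stretches were shared out between genes is not known here.

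The order of levels was Ifitm2, Bst2, Ifitm3, Ube2l6, Isg15, Usp18, Rtp4, Uba7 and Herc6 in 25-HC, and the ranges of neighbours in that order did not overlap. In vehicle the order was Ifitm2, Bst2, Ifitm3, Ube2l6, Uba7, Isg15, Usp18, Rtp4 and Herc6. There Ube2l6, Uba7 and Isg15 overlapped from neighbour to neighbour, as did Usp18, Rtp4 and Herc6. The place of Uba7 above Isg15 in vehicle rested on vehicle 2, with 13.0 TPM of Uba7 and 5.83 TPM of Isg15. In vehicle 1 and vehicle 3, as in all 25-HC libraries, Isg15 was above Uba7. The genes differ in transcript length, with which levels in vehicle 1 and vehicle 2 varied.

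Ranks within a library do not change with a factor applied to the whole library, so each gene was also placed among the 12092 tested genes of its own library. Isg15 stood at percentiles 71.6 to 74.4 in 25-HC and 36.8 to 56.9 in vehicle libraries. Usp18 stood at 55.8 to 60.7 in 25-HC and at 17.7 to 24.7 in vehicle libraries, and Rtp4 at 48.4 to 54.0 in 25-HC and at 11.9 to 21.8 in vehicle libraries. Usp18 and Rtp4 were thus of low rank in vehicle libraries and near the middle in 25-HC, while Isg15 was above the middle in vehicle 1 and vehicle 2 already. The highest vehicle percentile of Isg15 (56.9) was in vehicle 2, where its TPM was lowest (5.83), and it was at 36.8 in vehicle 3 with 7.88 TPM. Ranks in vehicle 1 and vehicle 2 are not free of the variation with transcript length. Ube2l6 was at 77.0 to 77.7 in 25-HC and 63.4 to 70.1 in vehicle libraries. Bst2 (97.0 to 97.1 in 25-HC, 95.7 to 96.4 in vehicle) and Ifitm3 (96.2 to 96.4 in 25-HC, 93.6 to 95.5 in vehicle) moved little near the top of the scale. Herc6 was lower in rank in each 25-HC library, at 5.1 to 6.2, than in each vehicle library, at 12.1 to 15.0. Its highest percentile (15.0) was in vehicle 2, where its TPM was lowest (0.49) and only 9492 genes were at 1 TPM or more. The rank of so low a gene also depends on how many other genes are near 0. By rank, 6 of the 9 genes were higher without overlap (18.6% of all tested genes) and 1 was lower (17.6%). Uba7 and Ifitm2 overlapped.

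**Figure D2:**
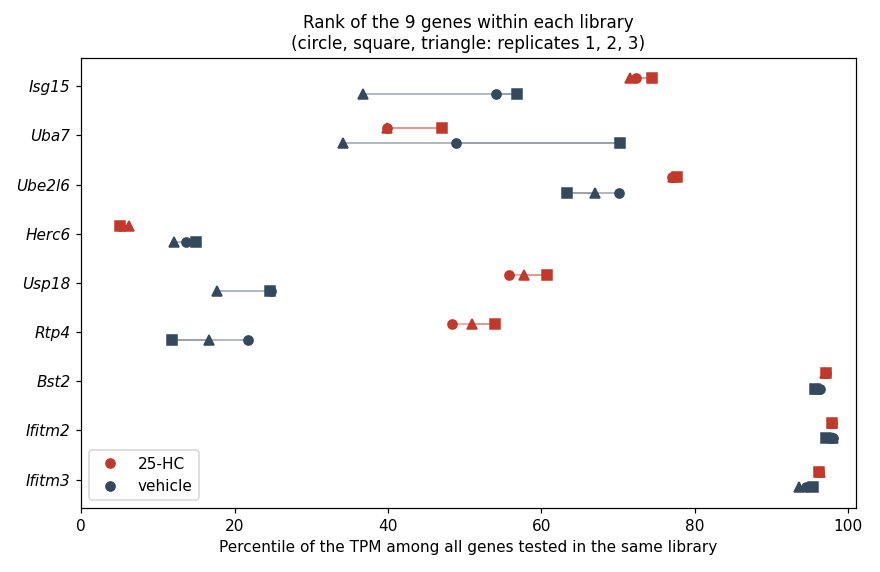
Percentile of each gene's TPM among the 12092 tested genes of the same library (horizontal axis), with 25-HC libraries above vehicle libraries for each gene and a line over the range of each group. Usp18 and Rtp4 are furthest apart between the groups, Herc6 is lower in rank in every 25-HC library, and the ranges of Uba7 and Ifitm2 overlap.

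Ratios of 2 members in the same library were compared with an exact two-sided permutation test over the 6 libraries, which cannot give a p below 0.1 with 3 against 3, so none of the 6 pairs could pass. Isg15 to Uba7, the modifier over its activating enzyme, was 3.98, 3.32 and 3.84 in 25-HC and 1.29, 0.449 and 1.12 in vehicle libraries (ratio of TPM). On the log2(TPM + 1) scale the ratio was 1.97 higher in 25-HC, with no overlap (exact p = 0.1, adjusted over the 6 pairs 0.15). Usp18 to Herc6, the protease over the ligase, was 14.9, 17.9 and 13.5 in 25-HC and 1.90, 2.08 and 1.41 in vehicle libraries. The vehicle libraries were close to each other in this ratio, and the difference was 2.68 on the log2 scale (exact p = 0.1, adjusted 0.15). That ratio rests on low values, with Herc6 at 0.49 to 2.12 TPM and Usp18 at 1.02 to 2.98 TPM in vehicle libraries. Both pairs join a shorter and a longer transcript. After length correction the differences were 2.63 for Isg15 to Uba7 and 3.05 for Usp18 to Herc6 (exact p = 0.1 each). The corrected value of Usp18 to Herc6 is limited by the low level of Herc6, at a mean of 1.22 TPM in 25-HC. On this scale Herc6 could not have fallen as far as the median of its length class in vehicle 2 (-1.64).

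Isg15 to Usp18, the modifier over the protease that removes it, went the other way. It was 2.05, 1.89 and 1.83 in 25-HC and 4.21, 5.72 and 2.64 in vehicle libraries, a log2 difference of -0.64 (exact p = 0.1, adjusted 0.15). Both genes were higher in 25-HC, and the ratio of means was larger for Usp18. That difference was -0.09 with a pseudocount of 5 (exact p = 0.7) and -0.28 after length correction (exact p = 0.2), and in both the groups overlapped. Isg15 to Ube2l6 was higher in 25-HC without overlap (log2 difference 0.77, exact p = 0.1, adjusted 0.15), but overlapped with a pseudocount of 5 (0.57, exact p = 0.3). Ube2l6 to Uba7 (1.20, exact p = 0.2, adjusted 0.24) and Ifitm3 to Ifitm2 (0.43, exact p = 0.4, adjusted 0.4) overlapped. In both of these vehicle 2 was apart from the other vehicle libraries, with an Ifitm3 to Ifitm2 ratio of 0.571 against 0.324 and 0.301 in vehicle 1 and 3 and 0.499 to 0.541 in 25-HC. With a pseudocount of 5 Ube2l6 to Uba7 was higher in 25-HC without overlap (1.04, exact p = 0.1).

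**Figure D3:**
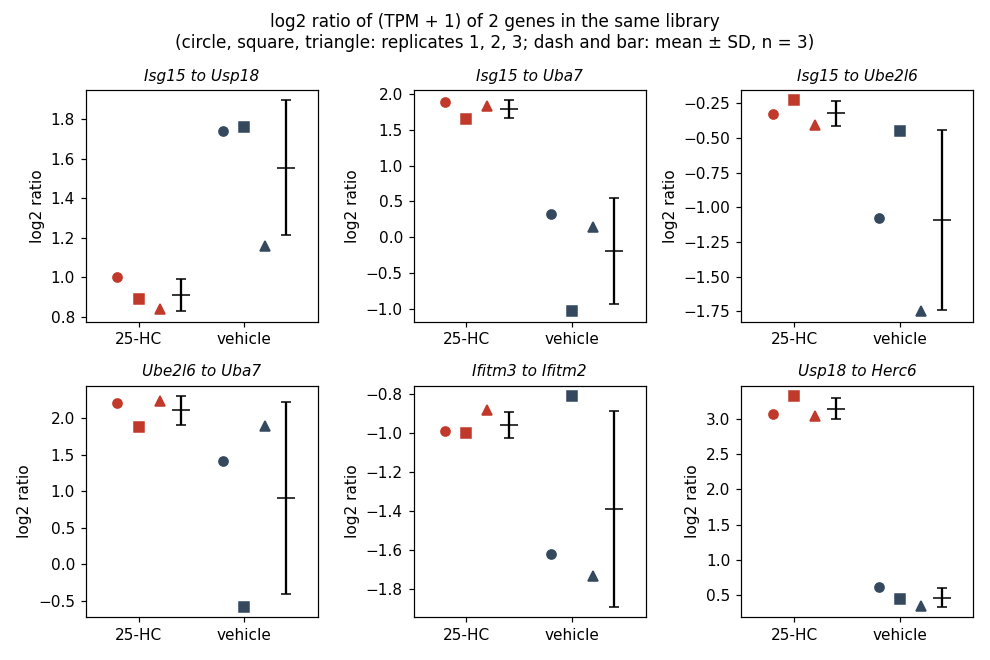
log2 ratio of (TPM + 1) of 2 genes in the same library, for 6 pairs, with the mean and SD of each group beside its 3 points. Isg15 to Uba7, Isg15 to Ube2l6 and Usp18 to Herc6 are higher and Isg15 to Usp18 is lower in every 25-HC library, while the other pairs overlap.

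Transcript length, with which vehicle 1 and vehicle 2 vary, differs between the members. Isg15 (756 bases for its longest GENCODE M21 transcript) is in the shortest of the 6 length classes. Minus the mean of the 25-HC libraries it was at -1.57, -2.43 and -2.05 in vehicle 1, 2 and 3 on the log2 scale, where the median gene of that class was at 0.18, -0.05 and 0.05. Bst2 and Ifitm3, of the same class, were at -0.31 and -0.58 in vehicle 1, at -0.94 and -0.64 in vehicle 2, and at -0.50 and -0.73 in vehicle 3. All of these values lay below the class medians. Ifitm2, also of that class, was at 0.08, -0.79 and 0.04 in vehicle 1, 2 and 3, close to the class median in vehicle 1 and vehicle 3. Uba7, with 3620 bases, was at -0.12, 0.39 and -0.41, against class medians of -0.48, -1.54 and 0.09. Herc6, with 4767 bases, was at 0.13, -0.57 and 0.49, against -0.62, -1.64 and 0.08. These are differences and not levels, and Herc6, at a mean of 1.22 TPM in 25-HC, could not have fallen as far below it as its class median in vehicle 2.

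After the trend with length was subtracted in each library (11132 genes), limma called 3 of the 9 genes higher, against 0.144% of the genes in that fit, and none lower, against 0.0269%. They were Usp18 (log2 difference 2.31, adjusted p = 0.0218), Rtp4 (2.17, adjusted p = 0.0249) and Isg15 (2.03, adjusted p = 0.0322), each higher in 3 of 3 treated libraries. Without vehicle 3 the same 3 genes were called, against 5.55% of all genes higher and 0.422% lower, and without vehicle 2 only Usp18 was, against 0.0744% and 0.0331%. Over all settings tried the adjusted p of limma ranged from 0.0218 to 0.62 for Usp18, from 0.0249 to 0.62 for Rtp4 and from 0.0322 to 0.62 for Isg15. After length correction Ube2l6, Bst2, Ifitm2 and Ifitm3 were also higher in each 25-HC library and Herc6 lower, none of them called. The background was 17.1% of genes higher and 18.7% lower. The low level of Herc6 limits its corrected value, as given above. Against vehicle 3 alone, the library without the length trend, 7 of the 9 were above it in all 3 25-HC libraries and Herc6 and Ifitm2 were below it. Of all genes, 28.5% and 45.7% were so placed.

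**Figure D4:**
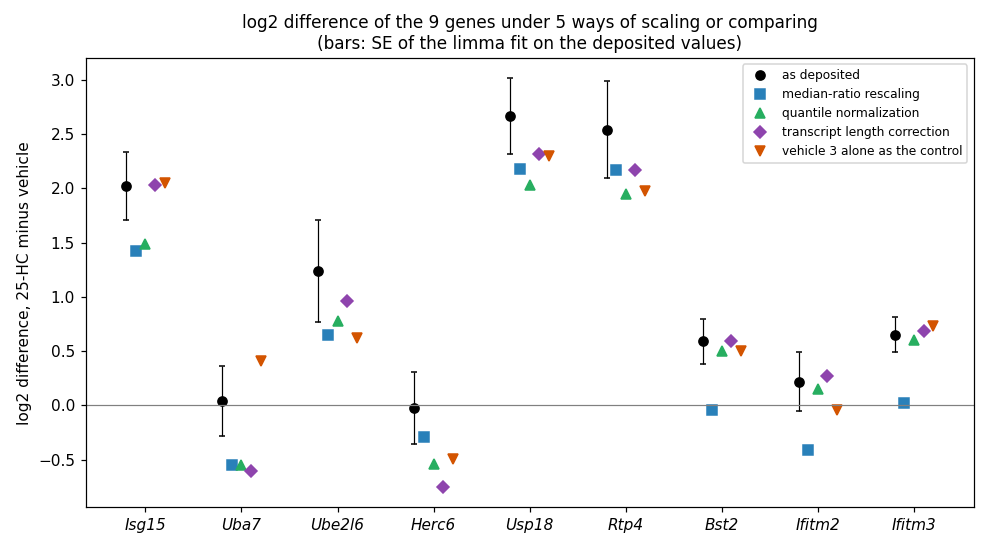
log2 difference of the 9 genes, 25-HC minus vehicle (vertical axis), as deposited with its SE and under 4 other ways of scaling or comparing. Usp18, Rtp4, Isg15 and Ube2l6 stay above 0 in all 5, between 0.62 and 2.66, while Uba7, Herc6, Bst2 and Ifitm2 lie on both sides of 0 or below it.

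The rest of the pathway was followed in lists of related genes, of which none held a gene that passed the limma test over all genes. The lists were chosen with earlier results of these data known. Of 11 other partners and proteases of ISG15, all tested, 3 separated upward and none downward, with a median log2 difference of 0.97 (0.52 over all tested genes). Over all tested genes 22.6% separated upward and 8.1% downward. After median-ratio rescaling 4 of the 11 separated upward (18.4% of all genes) and none downward (18.1%), with a median of 0.54. After length correction 3 separated upward (17.1% of all genes) and 1 downward (18.7%), with a median of 0.23. Usp24, a deubiquitinase, was at 2.19, 1.99 and 2.67 TPM in 25-HC and 0.66, 0.25 and 1.64 TPM in vehicle libraries. Usp14, a protease of the proteasome, was at 48.0, 42.8 and 42.7 TPM in 25-HC and at 25.5, 8.21 and 33.3 TPM in vehicle libraries. The log2 differences were 0.89 (SE 0.34) for Usp24 and 1.16 (SE 0.51) for Usp14, both with adjusted p = 0.389 by limma. Usp24 passed the filter only through 25-HC, its vehicle mean being 0.85 TPM, and after length correction its difference was 0.11 with overlap. That of Usp14 was then 0.43. Trim25, an interferon-induced ligase that can also act on ISG15 targets, was chosen after its values were seen and overlapped, at 34.1, 31.7 and 34.2 TPM in 25-HC and 12.7, 7.49 and 35.0 TPM in vehicle libraries.

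Of the 4 other HERC ligases 1 separated upward, against 22.6% of all tested genes, and the median was 0.91. After median-ratio rescaling 2 separated upward and 1 downward, against 18.4% and 18.1% of all genes. Herc1 was at 3.21, 2.80 and 3.05 TPM in 25-HC and 1.14, 0.17 and 2.61 TPM in vehicle libraries. Herc2 was at 4.28, 3.67 and 5.31 TPM in 25-HC and 1.66, 0.12 and 3.87 TPM in vehicle libraries, with overlap. The lowest value of both belonged to vehicle 2, as with Herc6. Their log2 differences of 0.95 and 1.14 were 0.21 and 0.40 after length correction. Among 11 tested activating and conjugating enzymes of ubiquitin and related modifiers, 1 separated upward (22.6% of all tested genes) and 1 downward (8.1%), with a median of 0.55. After length correction none separated upward (17.1% of all genes) and 2 downward (18.7%), with a median of -0.02. The gene lower on the deposited values was Ube2l3, given above.

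In the IFITM and RTP families few genes were expressed: of 9 listed relatives and partners 2 passed the filter and 4 were listed at 0 throughout. Ifitm6 was at 11.9, 11.4 and 12.7 TPM in 25-HC and at 9.10, 6.15 and 7.15 TPM in vehicle libraries, with a log2 difference of 0.64 (SE 0.27, adjusted p = 0.389 by limma) that was 0.06 with overlap after median-ratio rescaling. Zmpste24, a membrane protease that works with IFITM proteins, was at 33.0, 30.6 and 30.9 TPM in 25-HC and 13.1, 7.15 and 26.9 TPM in vehicle libraries. Both separated upward on the deposited values (22.6% of all genes) and after length correction (17.1%). There the log2 difference of Zmpste24 was 0.46, against 1.14 as deposited.

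Transcripts of the interferons themselves were at or near 0. Of 10 interferon genes, 8 were listed at 0 in all libraries, Ifnb1 reached 0.1 TPM at most and Ifng 0.03 TPM. Of 13 tested genes of the interferon receptor and its JAK-STAT and IRF signalling, 8 separated upward and none downward, with a median log2 difference of 0.99, against 22.6% and 8.1% of all tested genes. After median-ratio rescaling 5 separated upward (18.4% of all genes), with a median of 0.44, and after length correction 4 did (17.1%), with a median of 0.25. Irf9, a transcription factor that binds the ISRE, was at 20.4, 16.9 and 18.2 TPM in 25-HC and 6.21, 1.80 and 9.89 TPM in vehicle libraries. Its log2 difference was 1.69 (SE 0.53, adjusted p = 0.389 by limma), and 1.02 after length correction. Irf7 had a log2 difference of 1.36 (SE 0.25, adjusted p = 0.389 by limma) and overlapped after rescaling and after length correction (0.75).

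Other interferon-stimulated genes were given by 40 names, of which 39 were in the table as listed. Only 25 passed the filter, and 2 of them, Dtx3l and Epsti1, did so only through 25-HC, with vehicle means of 0.913 and 0.803 TPM. Of the 25, 22 separated upward and none downward, with a median log2 difference of 1.11, against 22.6% and 8.1% of all tested genes. The list was chosen with earlier results of these data known, so the contrast is a description and no independent test. After median-ratio rescaling 16 separated upward (18.4% of all genes), with a median of 0.69, and after length correction 17 did (17.1%), with a median of 0.63. Lgals9, which encodes galectin-9, was at 22.4, 25.6 and 23.1 TPM in 25-HC and 4.69, 2.81 and 5.56 TPM in vehicle libraries (log2 difference 2.24, SE 0.31, adjusted p = 0.389 by limma). Xaf1, a pro-apoptotic antagonist of XIAP, was at 11.9, 13.1 and 11.5 TPM in 25-HC and 3.21, 1.60 and 3.17 TPM in vehicle libraries (log2 difference 1.88, SE 0.31, adjusted p = 0.389 by limma). The classical genes Ifit1, Mx1 and Rsad2, chosen after their values were seen, stayed under 0.5 TPM in every library. At these low levels Rsad2 was still higher in each 25-HC library (0.14 to 0.46 TPM, against 0.01 to 0.06 TPM in vehicle). So was Mx1 (0.02 to 0.08 TPM, against 0 in vehicle), while Ifit1 overlapped (0.07 to 0.24 TPM, against 0.03 to 0.09 TPM). Psmb8 overlapped between groups, at 146, 150 and 160 TPM in 25-HC and 171, 154 and 149 TPM in vehicle libraries.

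**Figure D5:**
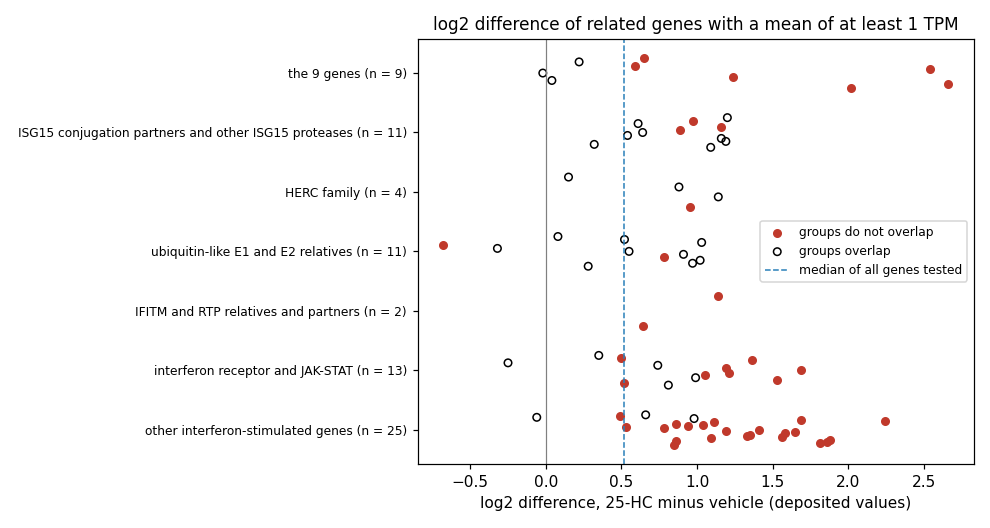
log2 difference, 25-HC minus vehicle (horizontal axis), of the 9 genes and of the tested genes of 6 lists of related genes, filled where the groups do not overlap, with a dashed line at the median of all tested genes (0.52). The largest differences belong to Usp18, Rtp4, Lgals9 and Isg15, and Ube2l3 is the lowest.

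The genes most like the 9 in pattern were found by Pearson r over the 6 libraries between log2(TPM + 1) and the mean standardised profile of the members, among 8434 other genes that averaged 5 TPM or more. They were Slfn2 (a Schlafen family gene, r = 0.997), Npc2 (which carries cholesterol inside lysosomes, 0.997), Brd3os (0.996), Oasl1 (an oligoadenylate synthetase-like gene, 0.996) and Fabp5 (a fatty acid-binding protein, 0.995). With 6 libraries that fall into 2 groups such values are common, and 876 of these genes had r above 0.9. Slfn2 was at 69.5, 75.7 and 71.8 TPM in 25-HC and 41.1, 25.8 and 40.8 TPM in vehicle libraries. Npc2 was at 132, 136 and 137 TPM in 25-HC and 99.7, 76.1 and 97.8 TPM in vehicle libraries. Their separation between the groups on the deposited values follows from how they were chosen, and after median-ratio rescaling it was seen for Brd3os alone.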

How the data were processed

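Bulk RNA of RAW264.7 cells was sequenced in 3 libraries of 25-HC and 3 of vehicle, prepared per the labels' protocols with a TruSeq kit from 1 µg of total RNA. The authors deposited TPM per gene with 2 decimals. RSEM, StringTie, HISAT2 and build GRCm39 are named, without roles, per the submitters' processing notes, and no source used here names versions, annotation release or strand setting. TPM keeps no depth, so no counting interval is given. The table also held 11 empty columns, which were not used.

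Limma 3.58.1 (R 4.3.3; two-sided, with a variance trend in eBayes and no block) was run on log2(TPM + 1), a scale that understates changes of low genes. Folds are ratios of mean TPM. Only the main fit and the size factors were tried on simulated data. The simulated noise was equal in all 6 libraries, unlike the spread of the vehicle libraries here. Alternatives were pseudocounts of 0.1 and 5, another filter (none, or a mean of 5 TPM), median-ratio or quantile scaling, mitochondrial genes removed, robust or untrended variances, a replicate block, a loess trend with transcript length subtracted (span 0.75, degree 2, GENCODE M21 lengths for 92.1% of tested genes), vehicle 3 alone, and each library left out. Separation means that all 25-HC libraries lie on the same side of all vehicle libraries. Beside the members, the text names the called genes of each list or else the 2 with the smallest p, and the 5 genes most alike in pattern. A gene that this rule names is not reported here. Members and lists were chosen with earlier results of these data known. Tables and figures were made with Python 3.11.15, scipy 1.17.1, numpy 2.4.6, pandas 2.3.3 and matplotlib 3.10.9.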

Additional observations from a re-analysis of the deposited data

How the results depend on the processing

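Isg15, Usp18, Rtp4 and Ube2l6 kept a positive log2 difference in all 18 other settings (ranges 1.42 to 2.24, 1.72 to 3.13, 1.50 to 3.27 and 0.62 to 1.56). That of Ifitm3 was 0.02 to 0.73. Its 0.02 was after median-ratio rescaling, where the groups overlapped and the ratio of mean rescaled TPM was 0.894. No member was called on the deposited values. With the length correction 3 were called, and with each library left out 0 to 3: Usp18, Rtp4 and Isg15 without vehicle 3 (adjusted p = 0.0379, 0.0482 and 0.0482 by limma) and Usp18 without vehicle 2 (0.0387). Of all genes, limma called 0.144% higher after length correction, 5.55% without vehicle 3 and 0.0744% without vehicle 2. The sign turned for Uba7 after median-ratio rescaling (-0.55), quantile normalization (-0.55) and length correction (-0.60), and its range with each library left out was -0.14 to 0.26. It turned for Herc6 with a pseudocount of 0.1 (0.06), with a range of -0.31 to 0.22 when each library was left out, for Bst2 after median-ratio rescaling (-0.04), and for Ifitm2 after median-ratio rescaling (-0.41), with a range of -0.06 to 0.37. Npc2 turned after median-ratio rescaling (-0.06) and length correction (-0.04). The cause was not tested.

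Over all genes limma called 1 higher and 0 lower. The numbers were 0 and 0 with a pseudocount of 5, with no filter, with a mean of at least 5 TPM and with the replicate block, 4 and 1 after quantile normalization, 1 and 1 after median-ratio rescaling, and 16 and 3 after length correction. With each library left out they ran from 0 to 671 higher and from 0 to 51 lower, the largest without vehicle 3. Members without overlap upward numbered 4 to 7, against 6 as deposited, with 4 after median-ratio rescaling. Of all genes, 22.6% separated upward as deposited and 18.4% after median-ratio rescaling. The 7 were seen after length correction (17.1% of all genes) and against vehicle 3 alone (28.5%). The pairing check gave correlations of the deviations of same-numbered libraries of -0.013, 0.056 and 0.03, so the replicate block rests on a shared number only, and with it no member was called. No p is given for vehicle 3 alone, a vehicle group without replicates. Depth is unknown in TPM, so the counting error of low members cannot be given.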
